A study of Mus musculus with 23 samples.

Results

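The glycolysis and hypoxia response genes are a set of 40 genes chosen by name: the enzymes and transporters that turn glucose into lactate, the kinases that keep pyruvate out of the mitochondrion, the hypoxia-inducible factors (HIFs) with their oxygen sensors, and genes known to answer to low oxygen. A gene was read from the probe set, the group of short array probes for 1 transcript, that listed it as its only symbol, and from the one with the highest mean where there were several. By that rule 37 of the 40 genes were measured, among 19937 genes in all. Gpi1 and Eno1 were on no probe set that listed them, and Gapdh was listed only on 11 probe sets shared with other symbols, so these 3 were not analysed here.

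The 23 arrays hold progenitors sorted from mouse bone marrow that either carry or lack C/EBPα, a transcription factor needed for the granulocyte and monocyte lineages. Controls were Mx.1-Cre- C/EBPa f/f mice and knockouts Mx.1-Cre+ C/EBPa f/f mice. In the latter an interferon-inducible Cre, active throughout the blood system and in some other tissues, removes the floxed gene. Both genotypes received 3 injections of poly I:C, and cells for 3 groups were sorted straight from their marrow 5 days afterwards, without culture or transplantation: control common myeloid progenitors (CMPs, n = 4), knockout CMPs (n = 4) and control granulocyte-macrophage progenitors (GMPs, n = 3). All other arrays come from lethally irradiated recipients, given radioprotective congenic marrow too, of cells that were grown with cytokines, among them IL-3 (10 ng/ml) and SCF (100 ng/ml), and infected with a retrovirus for MLL-AF9, a human leukaemia fusion, and GFP. Leukaemic GMPs (L-GMPs) of control origin came from 2 primary and 2 secondary recipients. L-GMPs of knockout origin came from 1 primary recipient, given vectors expressing IL-3 and GM-CSF, and from 2 secondary recipients of that same leukaemia, so these 3 arrays stand for 1 leukaemia. GFP-positive stem cell-enriched KSLs (n = 2) and CMPs (n = 3) came from knockout recipients without leukaemia, here called MLL-AF9 knockout progenitors. The 2 KSL arrays share their mice, A and B, with 2 of the CMP arrays, and the third CMP array is from mouse C. A GFP gate is stated for these progenitors and the primary knockout L-GMPs. The gate of the other L-GMPs, the age of the mice, and which control recipients share a donor, are not given in the sources used here, so a p-value reflects only how far these samples spread, which may be technical in part.

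Glycolysis splits glucose into pyruvate in the cytosol. Hexokinases trap glucose as glucose-6-phosphate, phosphofructokinase commits it to breakdown, and lactate dehydrogenase turns pyruvate into lactate, which leaves through monocarboxylate transporters. HIF is a pair of an oxygen-regulated α subunit and a constant partner. In the presence of oxygen the prolyl hydroxylases Egln1 and Egln3 mark the α subunit for destruction through Vhl. When oxygen is scarce HIF binds short ACGTG or GCGTG motifs near genes of glucose uptake, glycolysis, blood vessel growth and mitochondrial turnover. Stem cells of the marrow are known for reliance on glycolysis, and myeloid cells for high glycolytic capacity. Arrays read the mRNA and not HIF protein, which is controlled mainly by its stability.

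Values are log2 expression values on the scale of the deposited data, so a difference of 1 is a doubling, and levels are compared within a gene and never between genes. Cebpa stood between 7.19 and 7.96 on all control arrays and between 4.33 and 5.55 on all knockout arrays, so no array went against its genotype label. Of the sorting markers, Fcgr3 had means of 7.90 in control CMPs, 9.69 in control GMPs and 9.51 to 10.12 in the 4 groups of L-GMPs, but 5.48 in MLL-AF9 knockout CMPs. Residual noise differed. The scaled median absolute deviation was 0.086 to 0.0926 in control CMPs, knockout CMPs and control GMPs. It was 0.11 to 0.219 in the transplanted groups with over 1 array. Cells sorted straight from marrow and transplanted cells are separate experiments, so a difference between them cannot be told apart from a batch. A bulk sample also cannot tell fewer cells of a type from less RNA per cell.

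Promoter windows of 5 members are shown because the text turns on these genes and because their starts bound the gene in RefSeq (GRCm38.p6). Each is the 250 bases before the start, 5′ to 3′ on the gene's strand, in lower case with every ACGTG or GCGTG, on either strand, in capitals. Hk2 (hexokinase 2, chr6:82774455-82774704, minus strand) held 2 matches, Egln3 (chr12:54203875-54204124, minus strand) 1, Bnip3 (chr7:138909507-138909756, minus strand) 5, Slc16a1 (chr3:104638414-104638663, plus strand) 4, and the first start of Vegfa (chr17:46032378-46032627, minus strand) 0.
Hk2: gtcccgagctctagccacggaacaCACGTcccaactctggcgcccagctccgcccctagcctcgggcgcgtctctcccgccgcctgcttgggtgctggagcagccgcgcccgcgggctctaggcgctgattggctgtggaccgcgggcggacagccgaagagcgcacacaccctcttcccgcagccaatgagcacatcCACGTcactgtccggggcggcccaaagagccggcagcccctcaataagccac
Egln3: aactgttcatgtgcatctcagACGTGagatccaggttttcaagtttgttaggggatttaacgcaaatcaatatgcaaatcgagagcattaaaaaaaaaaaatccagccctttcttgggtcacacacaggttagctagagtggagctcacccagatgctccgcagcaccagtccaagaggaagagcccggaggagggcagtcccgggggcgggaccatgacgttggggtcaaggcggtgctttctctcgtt
Bnip3: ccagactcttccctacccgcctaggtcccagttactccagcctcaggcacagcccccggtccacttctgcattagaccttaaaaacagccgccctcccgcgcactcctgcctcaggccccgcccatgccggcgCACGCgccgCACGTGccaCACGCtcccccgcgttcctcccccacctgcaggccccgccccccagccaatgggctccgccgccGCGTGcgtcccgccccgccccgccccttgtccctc
Slc16a1: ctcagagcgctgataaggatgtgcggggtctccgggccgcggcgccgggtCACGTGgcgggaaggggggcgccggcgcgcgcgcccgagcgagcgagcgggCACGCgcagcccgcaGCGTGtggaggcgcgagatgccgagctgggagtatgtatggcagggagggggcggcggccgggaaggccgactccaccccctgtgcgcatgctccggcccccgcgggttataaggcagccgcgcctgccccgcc
Vegfa: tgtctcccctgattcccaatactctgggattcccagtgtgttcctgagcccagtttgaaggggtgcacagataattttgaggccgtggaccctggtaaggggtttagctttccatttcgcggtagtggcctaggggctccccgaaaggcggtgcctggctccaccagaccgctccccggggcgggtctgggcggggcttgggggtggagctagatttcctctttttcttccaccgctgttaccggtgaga
A stretch reading CACGTG matches on both strands and counts once on each. Of 50 windows tabulated for 36 of the 40 listed genes, 40 (80.0%) held a match, and 25 (50.0%) held 2 or more. Of all 32851 windows of that length, 38.6% held a match and 16.7% held 2 or more. The motifs contain CG, and the windows of the members were also richer in G and C (median 61.8%, against 52.4% of all windows); the part this plays in the difference was not tested. A match is a run of letters and not a binding site.

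The probe sets of 4 genes need care. For Hk1, Ldhb, Bnip3 and Pgam1 the probe set with the highest mean lies, in the array's numbering, among probe sets of another chromosome than the gene's own. Hk1, Ldhb and Bnip3 each have a second probe set among neighbours of their own chromosome. Over the 23 arrays the pair correlated at 0.83 for Ldhb and 0.68 for Bnip3, but at −0.44 for Hk1, which therefore has no settled direction here. Pgam1 has no second one. Results for these genes are given with both probe sets where the call differs.

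**Figure D1:**
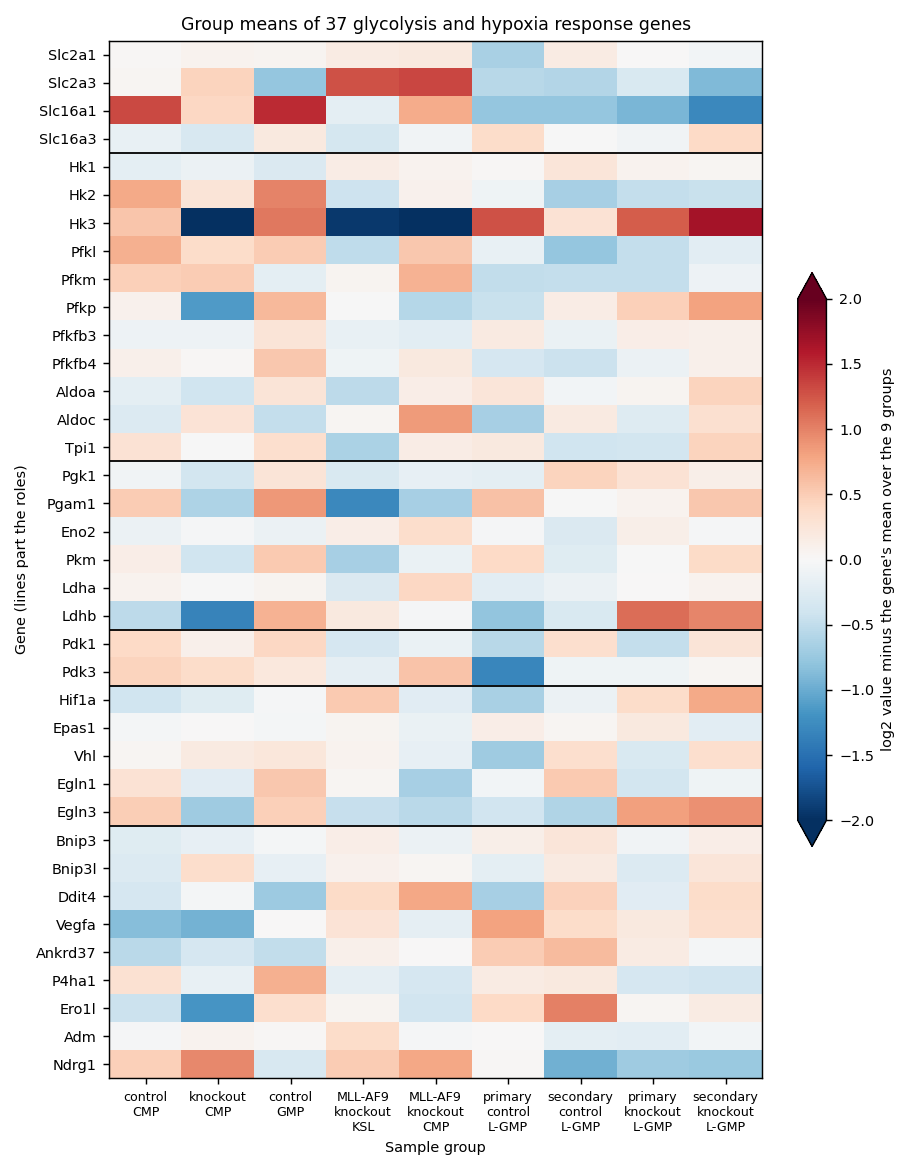
Mean log2 value of each of the 37 genes (rows, ordered by role) in the 9 sample groups (columns), minus the gene's mean over the groups; red is above and blue below that mean, and the colours end at 2 in either direction. Hk3 is the most extreme row, with group means from 4.77 to 8.57, while Epas1 spans 0.42.

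Over the 9 groups 27 of the 37 members (73.0%) differed (limma's F test, adjusted over all genes), against 45.3% of all genes. Group means spanned from 0.42 for Epas1, the HIF-2α subunit, to 3.80 for Hk3. In at least 1 of 8 comparisons between groups 22 members passed the threshold, an adjusted p of 0.05, and 15 passed in none. The same count was not made over all genes, so it is not read as a result about the members. All p-values below are adjusted over the 19937 genes after limma's moderated test.

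Knockout CMPs were first set against control CMPs, both sorted straight from marrow. Past the threshold no member rose and 5 fell: the myeloid hexokinase Hk3, the platelet-type phosphofructokinase Pfkp, the mutase Pgam1 and the oxygen sensors Egln1 and Egln3. That is 0.0% and 13.5% of the members, beside 2.27% of all genes higher and 2.64% lower, with a median change of −0.07 over the members and 0.00 over all genes.

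Hk3 (chr13:55005985-55021475), which phosphorylates glucose mainly in white blood cells, read 7.32, 7.12, 7.83 and 7.60 in control CMPs. In knockout CMPs it read 5.09, 4.86, 4.89 and 4.81. The groups did not overlap, and every knockout array lay over 2 units below the lowest control array. The change was −2.55 ± 0.19 (SE), 5.87-fold lower, with adjusted p = 1.6e-06. The other hexokinases moved less: Hk2, which is bound to mitochondria and is a known HIF target, read 6.91, 6.80, 6.90 and 6.92 in control and 6.27, 6.41, 6.66 and 6.22 in knockout CMPs. All 4 knockout arrays of Hk2 were the lower ones, yet the change did not pass the threshold.

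Pfkp (chr13:6579874-6649060) read 7.20, 6.93, 6.96 and 7.63 in control and 5.88, 5.96, 5.90 and 6.08 in knockout CMPs. It was 2.33-fold lower (−1.22 ± 0.24, adjusted p = 0.00635), again without overlap. Its sister isoforms Pfkl, the liver type, and Pfkm, the muscle type, did not pass. Pgam1, which moves the phosphate of 3-phosphoglycerate, read 9.81, 9.59, 9.87 and 9.94 in control and 8.63, 8.59, 8.71 and 8.81 in knockout CMPs, 2.17-fold lower (−1.12 ± 0.22, adjusted p = 0.00666). Pkm, pyruvate kinase, read 9.94, 9.96, 10.13 and 10.27 in control and 9.60, 9.55, 9.59 and 9.45 in knockout CMPs. Ldha, the muscle-type lactate dehydrogenase, read 9.31, 9.47, 9.43 and 9.41 in control and 9.19, 9.44, 9.30 and 9.43 in knockout CMPs. Pkm was lower on every knockout array and Ldha overlapped, and neither passed. Other members that did not pass were apart without overlap in both directions. Slc16a1, Ldhb, Ero1l, Tpi1 and Pgk1 were lower on every knockout array. Bnip3l (9.69 to 9.97 against 9.0 to 9.34) and Aldoc (5.71 to 5.75 against 5.01 to 5.4) were higher. So were Slc2a3 (6.51 to 6.72 against 6.17 to 6.28) and Ndrg1 (8.08 to 8.2 against 7.35 to 7.94). Non-overlap was not counted over all genes, here or in the comparisons below.

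Egln3 (chr12:54178981-54203874), the hydroxylase that HIF itself induces, read 7.83, 7.74, 8.19 and 7.90 in control and 6.71, 6.83, 6.72 and 6.58 in knockout CMPs. The 2.31-fold fall (−1.21 ± 0.22) had an adjusted p of 0.00415. Egln1, the main oxygen sensor, read 7.40, 7.42, 7.59 and 7.79 in control and 6.97, 7.03, 6.90 and 7.23 in knockout CMPs. Its fall of 0.52 on the log2 scale sat at the threshold (adjusted p = 0.0488). Hif1a, the HIF-1α subunit, read 7.22, 7.0, 7.27 and 7.17 in control and 7.31, 7.18, 7.37 and 7.44 in knockout CMPs, so the groups overlapped and the gene did not pass. Slc2a1, the main glucose transporter, read 6.82, 6.69, 6.98 and 7.33 against 6.95, 6.91, 7.17 and 6.92, with a change of 0.03. The HIF targets Vegfa, the vessel growth factor, and Bnip3, a mitophagy receptor, did not pass either. Vegfa read 6.64, 6.64, 6.69 and 6.77 in control and 6.71, 6.55, 6.54 and 6.55 in knockout CMPs, and Bnip3 read 7.22, 6.96, 7.10 and 7.08 against 7.36, 7.02, 6.97 and 7.31. None of the 9 hypoxia-response targets passed limma's test, with a median change of 0.09.

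Markers of granulocyte and monocyte differentiation moved with these genes. Of 9 monocyte and macrophage markers 8 fell (median −3.01), their mean level being 7.94 to 8.17 on control and 4.97 to 5.65 on knockout arrays. Of 6 primary granule markers 5 fell (median −3.32), with means of 9.84 to 10.87 and 6.80 to 8.08, and no marker of either list had a group mean at the lower limit of 3. Of 9 mast cell, basophil and eosinophil markers 2 fell (median −1.40), and of 23 cell cycle genes 2 (median −0.29). The part of these shifts in the falls of Hk3, Pfkp, Pgam1 and Egln3 was not tested. Leaving out any 1 of 7 of the 8 arrays, all but knockout CMP replicate 4, ended the call of Egln1 (adjusted p = 0.0609 to 0.168). Array weights gave 14 called members, and a fit on these 8 arrays alone gave 16.

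**Figure D2:**
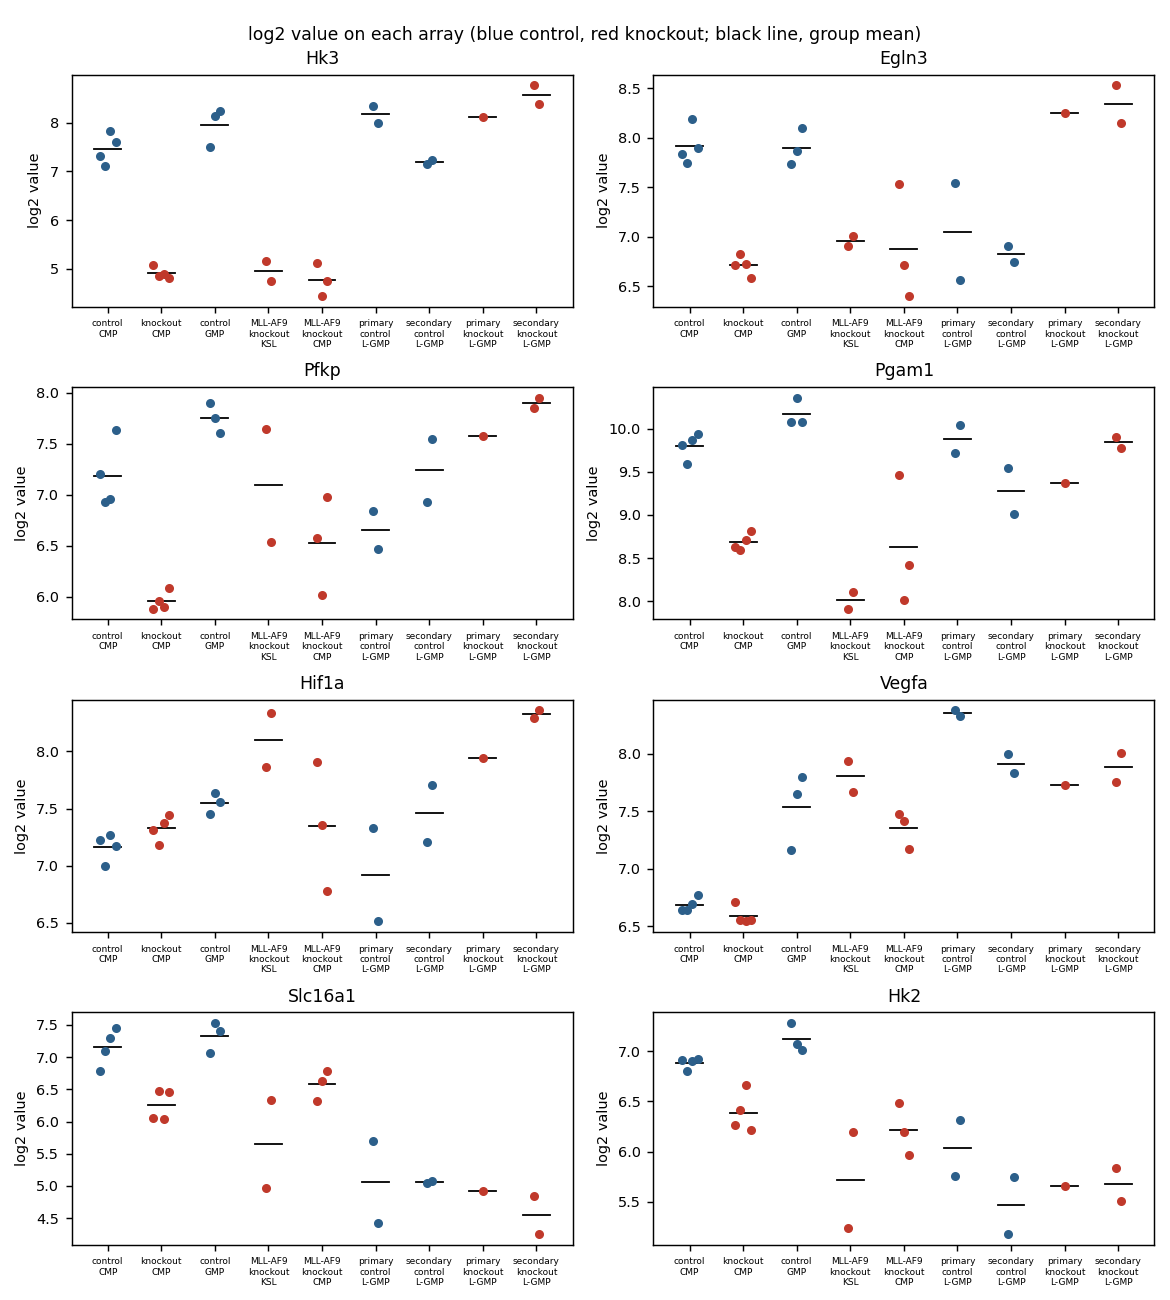
Log2 value on each of the 23 arrays (points) for 8 genes in the 9 groups (horizontal axis), with blue for control and red for knockout cells and a black line at the group mean; each panel has its own vertical scale. Hk3 lies between 4.44 and 5.17 in the 3 knockout groups without leukaemia and between 7.12 and 8.77 in all other groups.

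Knockout L-GMPs were then set against control L-GMPs. The vectors expressing IL-3 and GM-CSF are stated for the knockout leukaemia only, so genotype, vectors and the single leukaemia cannot be told apart here or in the difference of knockout effects below. Here 3 members rose and none fell: Ldhb, Hif1a and Egln3. That is 8.1% and 0.0% of the members, beside 2.1% of all genes higher and 1.16% lower, with a median change of 0.10. The mean level of 7 stem cell markers was 5.92 to 6.18 on knockout and 4.85 to 5.31 on control arrays. Of the 7, 2 were called higher, but the median change of the list was −0.07, so its mean does not stand for most of it. None of 9 monocyte and 1 of 6 primary granule markers was called higher. The part of these levels was not tested.

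Egln3 read 8.25 in the primary and 8.53 and 8.15 in the secondary knockout L-GMPs. In control L-GMPs it read 7.54 and 6.56 in primary and 6.91 and 6.75 in secondary recipients. It was thus high in all 3 knockout arrays, 2.56-fold above the controls (1.36 ± 0.25, adjusted p = 0.00548), the opposite sign to its fall in CMPs. Hif1a (chr12:73901324-73947554) read 7.94, 8.29 and 8.36 in knockout and 7.33, 6.51, 7.21 and 7.71 in control L-GMPs. The 2 groups did not overlap, and the rise was 1.92-fold (0.94 ± 0.23, adjusted p = 0.0376). Ldhb, the heart-type lactate dehydrogenase, read 7.97, 7.41 and 8.22 in knockout and 6.45, 5.68, 6.32 and 6.77 in control L-GMPs, 3.01-fold higher (1.59 ± 0.28, adjusted p = 0.00474). Its own-locus probe set read 7.16, 6.82 and 7.69 against 6.33, 6.03, 6.02 and 6.30, higher on all knockout arrays too, with a change of 1.04 and an adjusted p of 0.196.

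No other member passed. Pfkp read 7.57, 7.85 and 7.95 in knockout and 6.84, 6.47, 6.93 and 7.55 in control L-GMPs, apart by 0.79 ± 0.27 without overlap (adjusted p = 0.12). Ankrd37 read 6.56, 6.53 and 6.16 against 6.67, 7.10, 6.88 and 7.19, with a change of −0.51 ± 0.17, also without overlap (adjusted p = 0.114). Slc2a1 read 6.93, 6.92 and 6.82 in knockout and 6.44, 6.12, 7.13 and 7.05 in control L-GMPs, Hk2 5.66, 5.84 and 5.51 against 5.76, 6.32, 5.18 and 5.75, and Ldha 9.36, 9.45 and 9.39 against 9.19, 9.07, 9.37 and 9.07. All 3 overlapped. Pkm read 9.93, 10.38 and 10.29 against 10.31, 10.37, 10.06 and 9.34, and Bnip3 7.25, 7.57 and 7.34 against 7.32, 7.55, 7.54 and 7.61. Vegfa read 7.73, 7.76 and 8.01 against 8.38, 8.33, 8.0 and 7.83, and was not past the threshold. Hk3 read 8.12, 8.77 and 8.38 against 8.35, 7.99, 7.15 and 7.23, a change of 0.67 ± 0.22 with an adjusted p of 0.108. Since the knockout arrays are 1 leukaemia, counting them as 1 sample left 0 called members, with adjusted p = 0.104 for Ldhb, 0.385 for Hif1a and 0.131 for Egln3; a fit on these 7 arrays alone also called 0. Leaving out primary control L-GMP replicate 1 gave 5, and the Hif1a call ended without primary control replicate 2, secondary control replicate 1 or either secondary knockout array (adjusted p = 0.0787 to 0.116).

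The knockout effect differed between the 2 settings for 4 members, all more positive in L-GMPs than in CMPs: Hk3 (difference 3.22 ± 0.29, adjusted p = 1.9e-05), Egln3 (2.56 ± 0.33, adjusted p = 0.000504), Ldhb (2.41 ± 0.38, adjusted p = 0.00215) and Pfkp (2.01 ± 0.36, adjusted p = 0.00504). That is 10.8% of the members, beside 2.02% of all genes with a more positive and 0.782% with a more negative difference. Hk3 and Pfkp were low without C/EBPα in CMPs and not low in the knockout leukaemia. Egln3 changed sign. With the knockout leukaemia as 1 sample Pfkp had an adjusted p of 0.0524, and with the own-locus probe set Ldhb had a difference of 1.77 and an adjusted p of 0.116. Monocyte markers (6 of 9, median difference 3.53) and primary granule markers (5 of 6, median 4.12) shifted the same way, and their part was not tested.

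**Figure D3:**
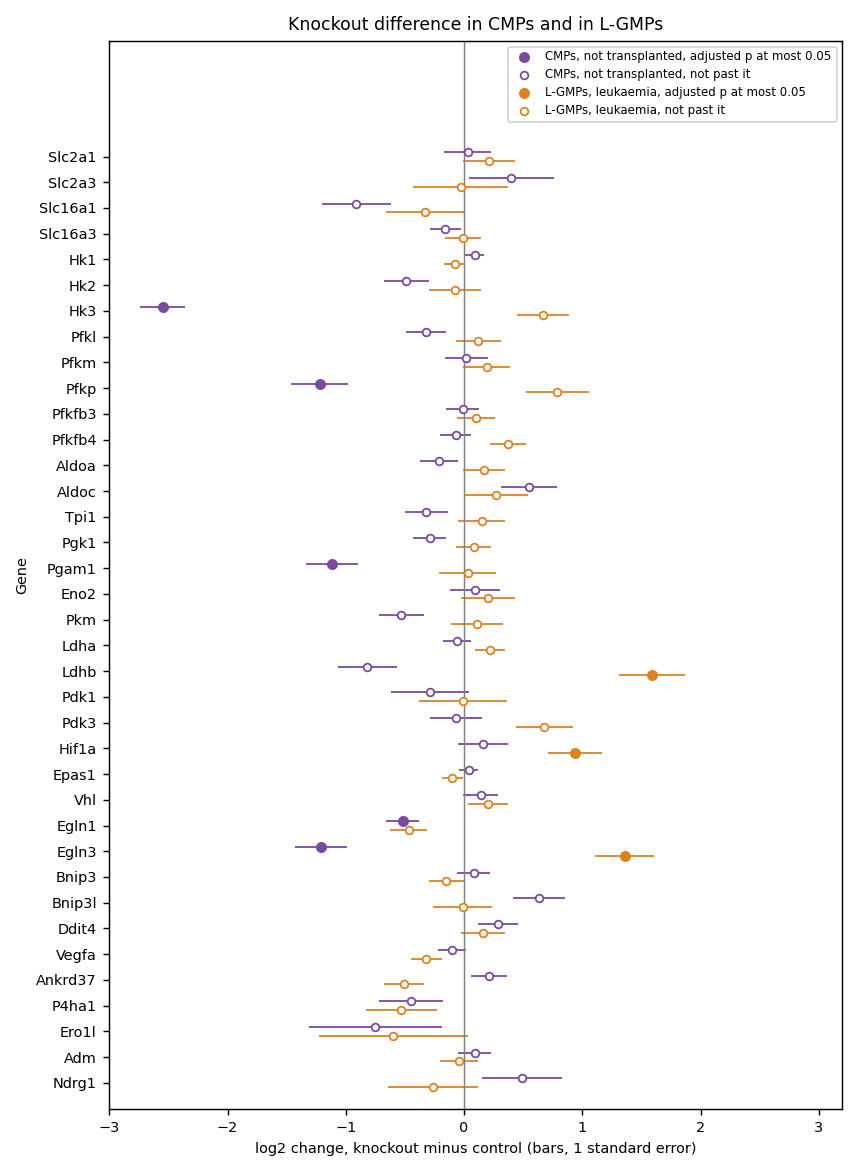
Log2 change, knockout minus control, with 1 standard error (horizontal bars), for each of the 37 genes (rows) in CMPs sorted straight from marrow (purple) and in L-GMPs (orange); filled points have an adjusted p of at most 0.05. Hk3 stands at −2.55 in CMPs and 0.67 in L-GMPs, and Egln3 at −1.21 and 1.36.

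The next comparisons set L-GMPs against MLL-AF9 knockout progenitors that had not become leukaemic. They also set GMP-stage cells against KSLs and CMPs, so stage and leukaemia cannot be told apart. In the knockout L-GMPs, the vectors expressing IL-3 and GM-CSF and the single leukaemia cannot be told apart from these either. In knockout L-GMPs 5 members were higher (13.5%; 7.27% of all genes) and 4 lower (10.8%; 5.93% of all genes), with a median of 0.02 beside −0.02 over all genes. In control L-GMPs, which differ from these progenitors in genotype too, 6 were higher (16.2%; 8.51% of all genes) and 8 lower (21.6%; 10.5% of all genes), again with a median of 0.02. The 2 comparisons share the 5 progenitor arrays, which come from 3 mice, so their values are set side by side and count once. Mice A and B each gave a KSL and a CMP array, which the fit took as independent, so these p-values may be too small. Mouse A was above mouse B in KSLs and CMPs for Slc2a3 (by 2.02 and 1.67) and Ndrg1 (by 1.23 in each).

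Hk3 was the largest change of the set in both. It read 5.17 and 4.76 in MLL-AF9 knockout KSLs and 5.13, 4.44 and 4.75 in MLL-AF9 knockout CMPs, below every L-GMP array. The change was 3.48 ± 0.21, 11.1-fold, in knockout L-GMPs (adjusted p = 2.48e-08) and 2.81 ± 0.19, 7.01-fold, in control L-GMPs (adjusted p = 5.73e-08). Pgam1 read 7.91 and 8.11 in the KSLs, 9.46, 8.01 and 8.42 in the CMPs, 9.37, 9.91 and 9.78 in knockout and 9.72, 10.04, 9.55 and 9.01 in control L-GMPs. It was 2.45-fold higher in knockout (1.29 ± 0.24, adjusted p = 0.00137) and 2.4-fold in control L-GMPs (1.26 ± 0.21, adjusted p = 0.000522). Only the CMP array of mouse A reached into the L-GMP range.

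Egln3 read 6.91 and 7.01 in the KSLs and 7.53, 6.71 and 6.40 in the CMPs, so all 3 knockout L-GMP arrays lay above them (1.38 ± 0.24, adjusted p = 0.000816), whereas control L-GMPs overlapped them. Pfkp rose by 0.93 ± 0.26 in knockout L-GMPs (adjusted p = 0.0235). Ldhb rose there by 0.97 ± 0.27 (adjusted p = 0.026), with 1.00 and an adjusted p of 0.13 for its own-locus probe set. Of the 5 members that fell in knockout CMPs, 4 (Hk3, Pfkp, Pgam1 and Egln3) are thus among the 5 that were higher in knockout L-GMPs; these 2 comparisons share no array. Over all genes 248 were in both lists, 47.1% of the 526 that fell and 17.1% of the 1450 that were higher, and the overlap was not tested.

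Falls in both comparisons were those of Slc2a3, Slc16a1, Ndrg1 and Pfkm. Slc2a3, a high-affinity glucose transporter, read 8.46 and 6.44 in the KSLs and 8.17, 6.49 and 7.88 in the CMPs. In knockout L-GMPs it read 5.86, 5.17 and 5.40, and in control L-GMPs 5.29, 5.95, 5.40 and 5.78. Every L-GMP array was below every progenitor array, and the change was −1.91 ± 0.39 in knockout (adjusted p = 0.00322) and −1.87 ± 0.34 in control L-GMPs (adjusted p = 0.00116). Slc16a1 (chr3:104638664-104658462), the lactate transporter MCT1, read 4.96 and 6.34 in the KSLs, 6.32, 6.63 and 6.78 in the CMPs, 4.92, 4.85 and 4.25 in knockout and 5.70, 4.43, 5.05 and 5.08 in control L-GMPs. It fell by 1.38 ± 0.32 (adjusted p = 0.00749) and 1.05 ± 0.28 (adjusted p = 0.0152). Ndrg1, a stress-response gene, read 8.29 and 7.06 in the KSLs, 8.06, 6.83 and 8.94 in the CMPs, 6.46, 6.54 and 6.30 in knockout and 6.93, 7.45, 6.08 and 6.32 in control L-GMPs. It fell by 1.37 ± 0.37 (adjusted p = 0.0202) and 1.11 ± 0.33 (adjusted p = 0.0255). Pfkm fell in both, by 0.67 ± 0.19 (adjusted p = 0.0305) and 0.86 ± 0.17 (adjusted p = 0.0022).

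Control L-GMPs had further changes of under 1 unit. Higher were Egln1 (0.55 ± 0.14, adjusted p = 0.00987), Vegfa (0.55 ± 0.11, adjusted p = 0.00284), Ankrd37, an ankyrin-repeat HIF target (0.52 ± 0.14, adjusted p = 0.0183), and Slc16a3, the lactate exporter MCT4 (0.38 ± 0.13, adjusted p = 0.0446). Lower were Pdk3, a pyruvate dehydrogenase kinase (−0.90 ± 0.21, adjusted p = 0.00655), Aldoc, an aldolase (−0.69 ± 0.23, adjusted p = 0.0478), Ddit4, an inhibitor of mTOR signalling (−0.68 ± 0.17, adjusted p = 0.00935), and Pfkfb4, which makes an activator of phosphofructokinase (−0.43 ± 0.13, adjusted p = 0.027). The arrays of the 2 sides overlapped for all 8. For Ddit4, Pdk3 and Aldoc the primary control L-GMPs were the lower ones. Ddit4 read 5.37 to 5.59 in primary and 6.43 to 6.78 in secondary ones, against 6.23 to 7.18 in the progenitors. Pdk3 read 6.03 to 6.39 and 7.1 to 7.73, against 7.28 to 8.66. Aldoc read 4.66 to 4.9 and 5.37 to 5.87, against 5.36 to 6.9. Vegfa read 7.94 and 7.67 in the KSLs and 7.48, 7.42 and 7.17 in the CMPs, and Hif1a read 7.86 and 8.34 in the KSLs and 7.91, 7.36 and 6.78 in the CMPs. Hk1 fell in both L-GMP comparisons with its own-locus probe set (−0.75 ± 0.13, adjusted p = 0.00066, and −1.22 ± 0.11, adjusted p = 1.72e-06) and passed in neither with the other.

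In both comparisons the monocyte markers (7 and 8 of 9) and primary granule markers (6 and 5 of 6) were higher and erythroid markers (6 and 7 of 9) lower, and their part was not tested. Fits on the compared arrays alone called 1 member in each, and counting the knockout leukaemia as 1 sample left 3, Hk3, Pgam1 and Egln3. The count for knockout L-GMPs was 5 without secondary knockout replicate 2 and 14 without MLL-AF9 knockout CMP replicate 1. In knockout L-GMPs the call ended for Pfkm without the primary knockout array, either secondary one, KSL replicate 2 or CMP replicate 2 (adjusted p = 0.0536 to 0.162), for Pfkp without secondary replicate 2 or KSL replicate 2 (0.0677 and 0.0757), for Ndrg1 without secondary replicate 2 or KSL replicate 1 (0.0645 and 0.0691), and for Ldhb without the primary array, secondary replicate 2 or KSL replicate 1 (0.0611 to 0.118). In control L-GMPs the call ended for Slc16a1 without primary replicate 2 or KSL replicate 2 (0.0867 and 0.079), for Ankrd37 without replicate 2 of the primary, secondary or KSL group (0.0846 to 0.0887), for Ndrg1 without 4 of the 9 arrays (primary replicate 1, both secondary, KSL replicate 1), for Pfkfb4 without 4 (primary replicate 2, both secondary, KSL replicate 2), for Slc16a3 without 6 (all but primary replicate 1, KSL replicate 1 and CMP replicate 1) and for Aldoc without 7 (all but secondary replicate 1 and CMP replicate 2), at adjusted p = 0.0527 to 0.173.

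Control GMPs were then set against control CMPs, which asked what changes on entry to the granulocyte-macrophage stage. Vegfa and Ldhb were higher and none was lower, 5.4% and 0.0% of the members beside 0.717% and 0.331% of all genes, with a median change of 0.17. Vegfa read 7.16, 7.65 and 7.80 in GMPs, above all 4 control CMP arrays (0.85 ± 0.13, 1.81-fold, adjusted p = 0.00328). Ldhb read 7.40, 7.58 and 7.65 in GMPs and 6.15, 6.14, 6.48 and 6.56 in CMPs (1.21 ± 0.27, 2.31-fold, adjusted p = 0.0434).

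No other member passed. Pfkm read 5.86, 6.0 and 5.92 in GMPs, below all control CMP arrays (−0.68 ± 0.19, adjusted p = 0.155). Hk3 read 7.50, 8.13 and 8.24, Hk2 7.28, 7.07 and 7.01, and Pkm 10.31, 10.63 and 10.45. All 3 Hk2 and all 3 Pkm arrays were above the 4 control CMP arrays. Hif1a read 7.45, 7.64 and 7.56, also above them, Slc2a1 7.05, 7.09 and 6.80, and Ldha 9.35, 9.27 and 9.58. Egln3 read 7.73, 7.86 and 8.10 and Bnip3 7.33, 7.20 and 7.35. Further members that did not pass were also apart without overlap. Slc2a3 (5.32 to 5.49 against 6.17 to 6.28), Ndrg1 and Aldoc were lower on every GMP array. Ero1l (8.79 to 9.01 against 7.9 to 8.52), Pgam1, Pfkfb4, Slc16a3 and Pgk1 were higher. Such separations were not counted over all genes. The Ldhb call was lost without any 1 of the 7 arrays (adjusted p = 0.0563 to 0.2), which left 1 member called, and its own-locus probe set had an adjusted p of 0.339. Array weights gave 9 called members. Of the marker lists, 3 of 9 erythroid markers were lower in GMPs (median −1.83), and 4 of 10 mature neutrophil markers (median 1.00) and 3 of 9 mast cell, basophil and eosinophil markers (median 0.69) were higher; their part was not tested.

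Control L-GMPs against control GMPs, leukaemic against non-leukaemic cells of the same genotype, had 4 members higher and 8 lower. That is 10.8% and 21.6% of the members beside 10.6% and 14.7% of all genes, so the share higher was near that of all genes, and the median change was −0.28 beside −0.02. The groups also differ in culture, transplantation, time since poly I:C and experiment, which cannot be told apart from leukaemia.

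The 8 falls were in Slc16a1, Hk2, Pfkl, Pfkp, Pfkfb4, Ldhb, Pdk3 and Egln3. Slc16a1 read 7.06, 7.53 and 7.40 in GMPs against 5.70, 4.43, 5.05 and 5.08 in L-GMPs, 4.8-fold lower (−2.26 ± 0.32, adjusted p = 0.000291). Hk2 read 7.28, 7.07 and 7.01 against 5.76, 6.32, 5.18 and 5.75, 2.59-fold lower (−1.37 ± 0.21, adjusted p = 0.000509). Neither overlapped. Pfkl read 6.91, 7.09 and 6.98 against 6.66, 5.98, 5.98 and 5.42 (−0.98 ± 0.18, adjusted p = 0.00194). Ldhb read 6.45, 5.68, 6.32 and 6.77 in L-GMPs, below all GMP arrays, and fell by 1.24 ± 0.27 (adjusted p = 0.00487) and, with its own-locus probe set, by 1.36 ± 0.41 (adjusted p = 0.0246). Egln3 (−0.96 ± 0.24, adjusted p = 0.00949), Pfkfb4 (−0.92 ± 0.15, adjusted p = 0.000625), Pdk3 (−0.92 ± 0.24, adjusted p = 0.0113) and Pfkp (−0.80 ± 0.26, adjusted p = 0.0322) completed the falls. Pdk3 read 6.39 and 6.03 in primary but 7.73 and 7.10 in secondary L-GMPs, against 7.66, 7.71 and 7.84 in GMPs, so the primary recipients were the lower ones.

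Of the 4 rises, 3 were hypoxia-response targets. Ankrd37 read 5.80, 5.95 and 5.91 in GMPs and 6.67, 7.10, 6.88 and 7.19 in L-GMPs, 2.1-fold higher (1.07 ± 0.16, adjusted p = 0.000463). Vegfa read 8.38, 8.33, 8.0 and 7.83 in L-GMPs and was 1.51-fold higher (0.59 ± 0.13, adjusted p = 0.00449), with its lowest L-GMP array just above the highest GMP array. Ddit4 read 5.23, 5.53 and 5.49 in GMPs and 5.59 and 5.37 in primary but 6.78 and 6.43 in secondary L-GMPs (0.63 ± 0.19, adjusted p = 0.0243), so its rise lay in the secondary recipients. Of the 9 hypoxia-response targets these 3 were higher and none lower, beside 10.6% and 14.7% of all genes. Of 33 other HIF pathway and hypoxia genes, listed beside the members, 5 were higher and 5 lower (median −0.02). The Ddit4 call was lost with array weights (adjusted p = 0.0588), with high Xist as a covariate (0.40, adjusted p = 0.197) and with the replicate block (adjusted p = 0.0619), and the Vegfa call on the compared arrays alone (adjusted p = 0.0684). The fourth rise, Hk1, depends on the probe set. It was 0.44 ± 0.09 (adjusted p = 0.00258) with the highest-mean one, which read 10.57, 10.50 and 10.66 in GMPs and 10.92, 10.88, 11.24 and 11.00 in L-GMPs. With the own-locus one it was −0.91 ± 0.13 (adjusted p = 0.000283), from 7.42, 7.64 and 7.44 to 6.84, 6.68, 6.48 and 6.36.

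Of 23 cell cycle genes 20 were lower in these L-GMPs (median −0.84), with list means of 8.96 to 9.06 on GMP and 8.06 to 8.35 on L-GMP arrays; 3 of 9 mast cell, basophil and eosinophil markers (median −2.22) and 2 of 6 primary granule markers (median −0.99) were lower too. The part of these shifts in the falls of Slc16a1, Hk2 and the other enzymes was not tested. Calls that ended without 1 array were those of Pfkp (without primary replicate 2, secondary replicate 1 or any GMP array, adjusted p = 0.0586 to 0.108) and Ddit4 (without secondary replicate 1 or any GMP array, 0.05 to 0.0945).

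**Figure D4:**
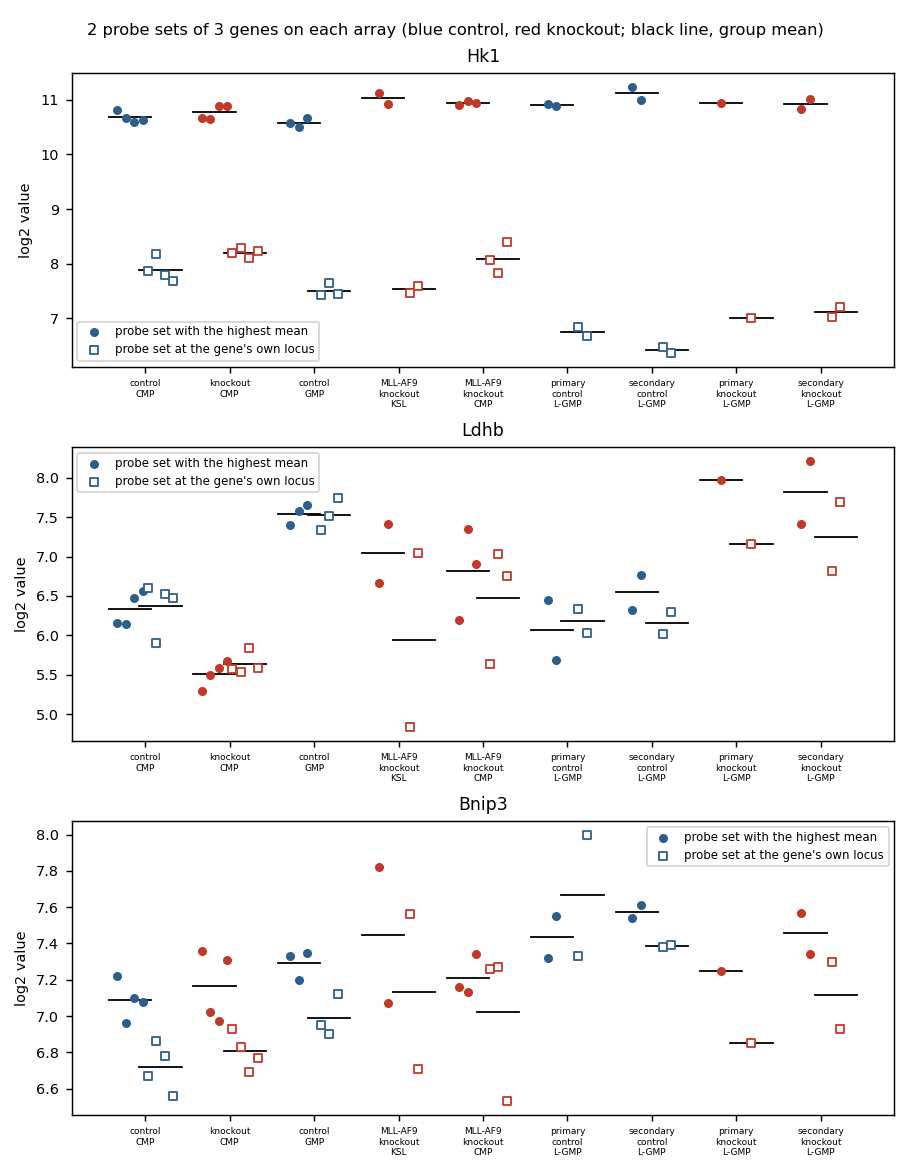
Log2 value on each array (points) of both probe sets of Hk1, Ldhb and Bnip3 in the 9 groups (horizontal axis), circles for the one with the highest mean and squares for the one at the gene's own locus, blue for control and red for knockout cells, black line at the group mean. The Hk1 squares are lowest in control L-GMPs (6.36 to 6.84), where the circles are not.

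MLL-AF9 knockout CMPs against knockout CMPs asked what the fusion, culture and transplantation bring to cells without C/EBPα. Ldhb, Ddit4 and Vegfa were higher and none was lower, 8.1% and 0.0% of the members beside 1.51% and 3.36% of all genes, with a median of 0.17 beside 0.01. Vegfa read 7.48, 7.42 and 7.17, above the 4 knockout CMP arrays (0.77 ± 0.13, 1.7-fold, adjusted p = 0.00356). Ddit4 read 6.96, 6.62 and 7.18 against 6.41, 6.21, 6.02 and 5.77 (0.82 ± 0.19, adjusted p = 0.0219). Ldhb read 6.20, 7.35 and 6.91 against 5.29, 5.50, 5.58 and 5.67 (1.31 ± 0.27, adjusted p = 0.0132), and with its own-locus probe set 0.84, with an adjusted p of 0.275.

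Hk3 stayed low in both groups, with means of 4.77 ± 0.34 (SD, n = 3) and 4.91 ± 0.12 (SD, n = 4). Slc2a1 read 7.76, 7.14 and 6.47, Hk2 6.48, 6.20 and 5.97, and Bnip3 7.16, 7.13 and 7.34 in MLL-AF9 knockout CMPs, and all 3 overlapped the knockout CMP arrays. Of the marker lists, 3 of 6 primary granule markers (median −1.36), 2 of 4 sort gate markers (median −0.97) and 4 of 23 cell cycle genes (median −0.32) were lower, and their part was not tested. The count was 1 with array weights or on these arrays alone, and 6 without MLL-AF9 knockout CMP replicate 2. The Ddit4 call ended without MLL-AF9 knockout CMP replicate 1 or knockout CMP replicate 3 or 4 (adjusted p = 0.06 to 0.0611).

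Within the MLL-AF9 knockout progenitors, CMPs against KSLs asked how the more mature stage differs. Pfkl and Ldha were higher and Egln1 was lower in CMPs, 5.4% and 2.7% of the members beside 2.02% and 1.3% of all genes, with a median of 0.07. Ldha read 9.72, 9.63 and 9.93 in CMPs and 9.38 and 8.74 in KSLs (0.70 ± 0.15, 1.63-fold, adjusted p = 0.0234). Pfkl read 7.10, 6.68 and 7.26 against 5.81 and 6.10 (1.06 ± 0.22, 2.08-fold, adjusted p = 0.0173). Egln1 read 6.45, 6.49 and 6.85 against 7.69 and 6.92 (−0.71 ± 0.18, adjusted p = 0.0466).

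None of the 3 overlapped. Mice A and B gave both cell types, and with the mouse as a replicate block these 3 held and the aldolase Aldoa passed too (0.71 ± 0.16, adjusted p = 0.0253; 0.64 and 0.107 without the block), which made 4. Slc2a1 read 7.12 and 7.04, Hk2 5.24 and 6.20, Bnip3 7.82 and 7.07, and Pkm 9.46 and 9.08 in KSLs; Pkm read 10.46, 9.36 and 9.61 in CMPs. Of 23 cell cycle genes 6 were higher in CMPs (median 0.42), and the part of this was not tested. The count fell to 0 with array weights or on these 5 arrays alone, and was 8 without KSL replicate 2, 7 without CMP replicate 2 and 1 without CMP replicate 3. The calls ended for Pfkl without KSL replicate 1 or CMP replicate 3 (adjusted p = 0.0999 and 0.0601), for Ldha without KSL replicate 2 or CMP replicate 3 (0.0955 and 0.0776), and for Egln1 without KSL replicate 1, CMP replicate 1 or CMP replicate 2 (0.404, 0.0937 and 0.0531). Without KSL replicate 2 the change of Ldha was 0.38, and without KSL replicate 1 that of Egln1 was −0.32.

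For 4 members mice A and B differed by over 1 in both cell types: Ero1l, Slc2a3 and Ndrg1, which were higher in A, and Pdk1, which was lower. Ero1l (chr14:45283087-45318572), an oxidase of the endoplasmic reticulum that hypoxia induces, read 10.05 in KSLs and 10.00 in CMPs of mouse A. It read 7.21 and 7.15 in those of mouse B and 7.39 in the CMPs of mouse C. Slc2a3 read 8.46 and 8.17 in mouse A, 6.44 and 6.49 in mouse B and 7.88 in mouse C. Ndrg1 was likewise high in A (8.29 and 8.06) and low in B (7.06 and 6.83), with 8.94 in C. Pdk1, the pyruvate dehydrogenase kinase known as a HIF target, ran the other way, with 5.89 and 6.62 in A, 7.96 and 7.71 in B and 7.0 in C.

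Mouse A was above mouse B by over 1 in both cell types for these 3 of the 37 members (8.11%) and below it for 1 (2.7%), beside 1.77% and 0.9% of all genes. One mouse stands on each side, so this is a description with no test. Marker lists moved with the mouse too. The mean of 9 mast cell, basophil and eosinophil markers was 8.65 in KSLs and 8.45 in CMPs of mouse A. It was 5.94 and 5.81 in those of mouse B and 5.90 in mouse C. Mouse A thus stood above mice B and C, as for Ero1l. Erythroid markers averaged 6.15 and 6.83 in A and 7.75 and 8.24 in B, and stem cell markers 4.83 and 4.52 in A and 5.93 on both arrays of B. Their part was not tested. The other hypoxia-response targets went in either direction. Vegfa (7.94 and 7.48 in A against 7.67 and 7.42 in B), Ankrd37 and Bnip3 were higher in A in both cell types. Bnip3l, a mitophagy receptor, was lower in A (9.11 and 8.94) than in B (10.03 and 9.53), and so was P4ha1. Ddit4 and Adm differed in opposite directions in KSLs and CMPs.

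**Figure D5:**
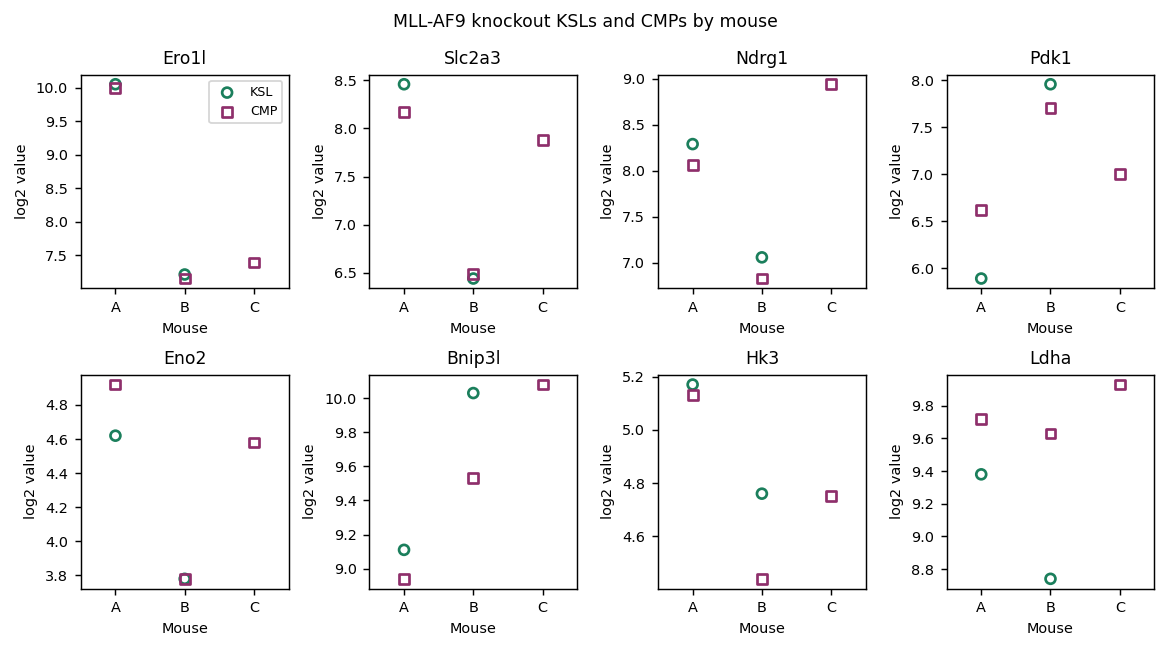
Log2 value of 8 genes (panels, each with its own vertical scale) in MLL-AF9 knockout KSLs (circles) and CMPs (squares) of mice A, B and C (horizontal axis), 1 array per point. Ero1l stands at 10.05 and 10.00 in mouse A and between 7.15 and 7.39 in the other mice, while Hk3 lies between 4.44 and 5.17 in all 3.

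The 15 members that passed in none of the 8 comparisons were Slc2a1, Pfkfb3, Aldoa, Tpi1, Pgk1, Eno2, Pkm, Pdk1, Epas1, Vhl, Bnip3, Bnip3l, P4ha1, Ero1l and Adm. Tpi1, triose-phosphate isomerase, ranged from 8.17 to 9.66 over all arrays, and Pgk1, phosphoglycerate kinase, from 9.37 to 10.48. Pfkfb3, maker of the phosphofructokinase activator, ranged from 7.0 to 8.0. Eno2, the neuronal enolase, had group means between 3.79 and 4.43, and Adm, the vasodilator adrenomedullin, between 3.93 and 4.51, near the lower limit of the values of 3 where changes are compressed. Epas1 had means between 4.50 and 4.92. Vhl ranged from 5.48 to 6.98, P4ha1, a collagen prolyl hydroxylase, from 5.51 to 7.10, and Aldoa from 9.55 to 10.96. A p that misses the threshold does not show that a gene was level: Ero1l had group means from 7.39 in knockout CMPs to 9.57 in secondary control L-GMPs.

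Other genes of these pathways were read from lists held beside the members. Of 28 other glycolysis and pyruvate genes, 1 was higher and 2 were lower in knockout CMPs, beside 2.27% and 2.64% of all genes. In knockout L-GMPs against control ones 3 were higher and 1 lower, beside 2.1% and 1.16% of all genes. Fbp1, the gluconeogenic phosphatase that opposes phosphofructokinase, read 5.52, 5.24, 5.65 and 5.73 in control and 4.42, 4.45, 4.62 and 4.18 in knockout CMPs (−1.12 ± 0.29, adjusted p = 0.0352). It read 9.14, 9.27 and 9.57 in knockout L-GMPs, above 6.67, 5.11, 8.27 and 8.37 in control ones (2.18 ± 0.32, adjusted p = 0.00134), and was 4.80 above the MLL-AF9 knockout progenitors (± 0.31, adjusted p = 6.4e-08). Pdk2, a further pyruvate dehydrogenase kinase, was higher in knockout CMPs (0.91 ± 0.22, adjusted p = 0.0244). Slc16a7, the transporter MCT2, was lower in control L-GMPs than in GMPs (−1.78 ± 0.29, adjusted p = 0.000749).

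Of 13 pentose phosphate and glycogen genes, 5 were higher and 0 lower in each L-GMP group against the MLL-AF9 knockout progenitors. Of all genes 7.27% were higher and 5.93% lower in knockout L-GMPs, and 8.51% and 10.5% in control L-GMPs. Pgd, an NADPH-making enzyme of the pentose phosphate pathway, was 1.67 ± 0.14 higher in knockout (adjusted p = 9.66e-07) and 1.54 ± 0.13 in control L-GMPs (adjusted p = 5.53e-07). Pygl, the liver glycogen phosphorylase, was 1.57 ± 0.31 and 1.41 ± 0.28 higher (adjusted p = 0.0028 and 0.00206). Pgd was also lower in knockout CMPs (−0.67 ± 0.13, adjusted p = 0.00696) and higher in GMPs than CMPs (0.87 ± 0.14, adjusted p = 0.00551).

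Of 33 other HIF pathway and hypoxia genes, 3 were higher and 1 lower in knockout CMPs, beside 2.27% and 2.64% of all genes. In control L-GMPs against GMPs 5 were higher and 5 lower, shares near those of all genes there (10.6% and 14.7%). Against the MLL-AF9 knockout progenitors 4 were higher and 6 lower in knockout L-GMPs, beside 7.27% and 5.93% of all genes. In control L-GMPs 3 were higher and 8 lower, beside 8.51% and 10.5% of all genes. Ak4, a mitochondrial adenylate kinase induced by hypoxia, was chosen because its change was already known. It read 7.12, 8.21 and 8.61 in knockout L-GMPs and 4.13, 3.62, 3.96 and 4.12 in control ones (3.81 ± 0.50, adjusted p = 0.000429). It read 7.40, 8.10 and 7.82 in control GMPs, from which control L-GMPs fell by 3.82 ± 0.48 (adjusted p = 0.000141). The difference of its knockout effects between L-GMPs and CMPs was 5.35 ± 0.67 (adjusted p = 0.000413). Cxcr4, the chemokine receptor that holds cells in the marrow, was lower in knockout CMPs (−0.98 ± 0.18, adjusted p = 0.00393) and higher in control (1.44 ± 0.17, adjusted p = 2.12e-05) and knockout L-GMPs (1.06 ± 0.19, adjusted p = 0.00113) than in the MLL-AF9 knockout progenitors. Fam162a, a HIF-induced mitochondrial protein, was lower in control (−0.78 ± 0.16, adjusted p = 0.00238) and knockout L-GMPs (−1.47 ± 0.18, adjusted p = 3.06e-05). In the last comparison, CMPs against KSLs, 2 of the 13 pentose phosphate and glycogen genes were higher, beside 2.02% of all genes. Of the 33 other HIF pathway and hypoxia genes only Kdm3a, a histone demethylase, was lower (−0.81 ± 0.17, adjusted p = 0.0158), beside 1.3% of all genes.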

How the data were processed

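RNA of 23 sorted samples was amplified (NuGen Ovation Pico WTA V2, per the labels' protocols) and hybridised to 1 Affymetrix array each. The deposited values are log2 expression values made by the authors with RMA, per the submitters' processing notes (version not stated); they start at 3.0 and array medians run from 5.37 to 5.5. RMA pulls low values together, so changes of dim genes are understated. The number of arrays limits the precision.

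Of 34760 probe sets, 21640 name 1 gene symbol, 1321 several and 11799 none in the platform annotation used; those with 1 symbol gave 19937 genes, each by its probe set with the highest mean. No 2 arrays were copies (highest correlation 0.991 over 253 pairs). Group means were fitted over all 23 arrays with limma 3.58.1 (R 4.3.3; lmFit, eBayes with trend), so that all groups share 1 estimate of the spread, with equal weight for each pooled group and Benjamini-Hochberg adjustment over all genes (threshold 0.05). The method was tested on simulated data. Named genes are the members called in a comparison, plus Hif1a, Slc2a1, Hk2, Hk3, Ldha, Pkm, Vegfa, Bnip3 and Egln3; others were named after their values were seen. The members and lists were chosen with earlier results of these data known.

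Alternatives were array weights, the compared arrays alone, the mean of a gene's probe sets, only genes with a mean above 5, equalised array medians, high Xist as a covariate, the replicate block, the knockout leukaemia as 1 sample, each array left out and, chosen after seeing the data, the own-locus probe set. Replicate numbers pair KSL and CMP arrays only, which come from the same mice (correlations of their deviations 0.45 and 0.26).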

Additional observations from a re-analysis of the deposited data

Results flagged for a closer look

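The knockout effect differed between L-GMPs and CMPs, by limma's test of that difference, for Hk3 (3.22), Egln3 (2.56), Ldhb (2.41) and Pfkp (2.01 on the log2 scale, L-GMPs minus CMPs).

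In 5 of 74 tests of a gene in a group of 4 arrays, 1 array stood far from the other 3 for the width of the group; chance alone gives about 1 in 20. Knockout CMP replicate 3 read 7.17 for Slc2a1, the others 6.91 to 6.95. Control CMP replicate 2 read 6.80 for Hk2, the others 6.90 to 6.92. Knockout CMP replicate 2 read 5.75 for Aldoc, where the others read 5.71. Knockout CMP replicate 1 read 6.71 for Vegfa, above 6.54 to 6.55, and 5.83 for Ankrd37, below 6.11 to 6.16.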

How the results depend on the processing

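Over the 55 gene results called above, 745 recalculations under other settings kept direction and call, 160 kept the direction only and 2 reversed: Hk1 in control L-GMPs against GMPs was −0.24 with the mean of its probe sets and −0.91 with its own-locus probe set, beside 0.44. The count of called members moved by over 1.5 times as follows, and the cause was not tested. Array weights, which ranged from 0.26 to 2.92, gave 14 in knockout against control CMPs (all genes 3762), 9 in GMPs against CMPs (1257), 1 in MLL-AF9 knockout CMPs against knockout CMPs (335), 4 in control L-GMPs against the progenitors (1250) and 0 in MLL-AF9 knockout CMPs against KSLs (3; 5 members had an unadjusted p below 0.05 in limma). Fits on the compared arrays alone, with fewer arrays to set the spread, gave 16 in knockout against control CMPs (3220), 0 in knockout against control L-GMPs (11; 8 members unadjusted), 1 in MLL-AF9 knockout CMPs against knockout CMPs (443), 1 in knockout (347) and 1 in control L-GMPs (493) against the progenitors, and 0 in CMPs against KSLs (0; 3 members and 1066 genes unadjusted). With the knockout leukaemia as 1 sample 0 were called against control L-GMPs (90; 6 members unadjusted) and 3 against the progenitors (952); a lone sample is taken to vary like the other groups. GMPs against CMPs had 1 with the mean of probe sets or the own-locus probe set.

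The replicate block gave 4 called members in knockout against control CMPs, 1 in GMPs against CMPs, 2 in knockout against control L-GMPs, 10 in control L-GMPs against GMPs, 2 in MLL-AF9 knockout CMPs against knockout CMPs, 9 and 17 in knockout and control L-GMPs against the progenitors, 4 in CMPs against KSLs and 4 for the difference of knockout effects. Outside the CMP and KSL arrays, same-numbered arrays share only a number (correlations −0.21 to 0.18). Counts over all genes are not given for these fits or for those below that leave out 1 array. A shift in the count of members may thus be one of the whole array.

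Leaving out 1 array at a time gave 4 to 5 called members in knockout against control CMPs, 1 in GMPs against CMPs, 2 to 5 in knockout against control L-GMPs, 10 to 14 in control L-GMPs against GMPs, 2 to 6 in MLL-AF9 knockout CMPs against knockout CMPs, 5 to 14 in knockout and 10 to 19 in control L-GMPs against the progenitors, 1 to 8 in CMPs against KSLs, 4 to 6 for the difference and 26 to 32 for the F test.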
